A study of Homo sapiens with 6 samples.

Results

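The vacuolar H+-ATPase (V-ATPase) subunit genes and the cathepsin genes were followed in U251 cells, an established human glioma cell line. They were chosen by name. A row of the count table was a member if it was protein-coding and its Ensembl ID mapped to a symbol beginning with ATP6V0, ATP6V1 or ATP6AP, or to a cathepsin symbol (CTSA to CTSZ). The rule gave 42 genes of the 61496 features in the table and left out 22 non-coding or pseudogene rows whose names also matched. The members were 25 V-ATPase genes (13 of the V1 sector, 9 of the V0 sector and 3 accessory), 15 cathepsins (11 cysteine, 2 aspartic and 2 serine proteases) and 2 genes that share only the name, ATP6V1FNB and the readthrough locus ATP6V1G2-DDX39B. TCIRG1, which encodes a further subunit a of the V0 sector, carries another name and was handled outside the rule.

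The study compared 3 libraries of untreated control cells with 3 libraries of cells exposed for 2 h to sevoflurane (Sev), an inhaled anesthetic. The labels list Sev at 1.7%, 3.4% and 5.1% without assigning a concentration to a library, and the legend to the RNA profiling names 5.1% for the sequenced cells. All 6 came from the same cell line with no genetic change, and RNA was depleted of ribosomal RNA before strand-specific sequencing. Nothing in the labels says that replicates were separate cultures. The study's statistics section speaks of 3 independent experiments for its quantitative data, without naming the sequencing. The p-values thus measure the spread between these libraries, which may be technical. Total counts were 38624292 to 46318311 per library. The first principal component held 69% of the variance and separated control from Sev. Of 11 astroglial and glioma markers, 10 averaged above 1 CPM (counts scaled to the size of the library), with VIM, NES, SOX2 and GFAP among them. OLIG2, another of the 10, lay at 0.451 to 0.757 CPM in Sev. By the test described below, 2 of these markers rose in Sev and 3 fell, SOX2 and OLIG2 included. This list summed to 7990 to 9570 CPM per library, and the neuron list to 30.1 to 37.5 CPM. Endothelial markers summed to 7.12 to 10.4 CPM, oligodendrocyte markers to 5.11 to 8.68 CPM and 3 epithelial markers to at most 0.293 CPM.

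The V-ATPase is a rotary proton pump that acidifies lysosomes, endosomes and secretory vesicles. Its V1 sector lies in the cytosol and hydrolyses ATP, and its V0 sector lies in the membrane, where a ring of proteolipid subunits carries protons past subunit a. Cathepsins are proteases of the lysosome, most of them cysteine proteases that mature and work in the acid which the pump provides.

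Gene expression was called different when its p from edgeR's quasi-likelihood test, adjusted by the Benjamini-Hochberg method over all 27514 tested features, was under 0.05. Among these features 22.1% were called higher and 21.5% lower in Sev, and among the 15189 tested protein-coding genes 25.0% were higher and 21.0% lower. Of the 42 members, 37 had enough counts to be tested, and 10 of them rose, 4 fell and 23 were not called. These shares, 27.0% higher and 10.8% lower, have to be read against that background, in which close to 1 in 4 protein-coding genes rose. With the threshold used in the study, more than 1 log2 unit up or down with an unadjusted p under 0.05, 5 members passed, while 23.5% of all tested features and 16.7% of the protein-coding genes did.

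The V-ATPase genes did not move as a block. Of 22 tested, 5 rose, 2 fell and 15 were not called, with a median log2 fold change of 0.0041, beside -0.0056 over all tested features. The 5 that rose were ATP6V0C, ATP6V0B and ATP6V0D1 of the V0 sector and ATP6V1G1 and ATP6V1F of the V1 sector. The cathepsins split in a similar way, with 3 higher (CTSW, CTSS and CTSH), 2 lower (CTSD and CTSF) and 8 not called of 13 tested, and a median of -0.036.

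**Figure D1:**
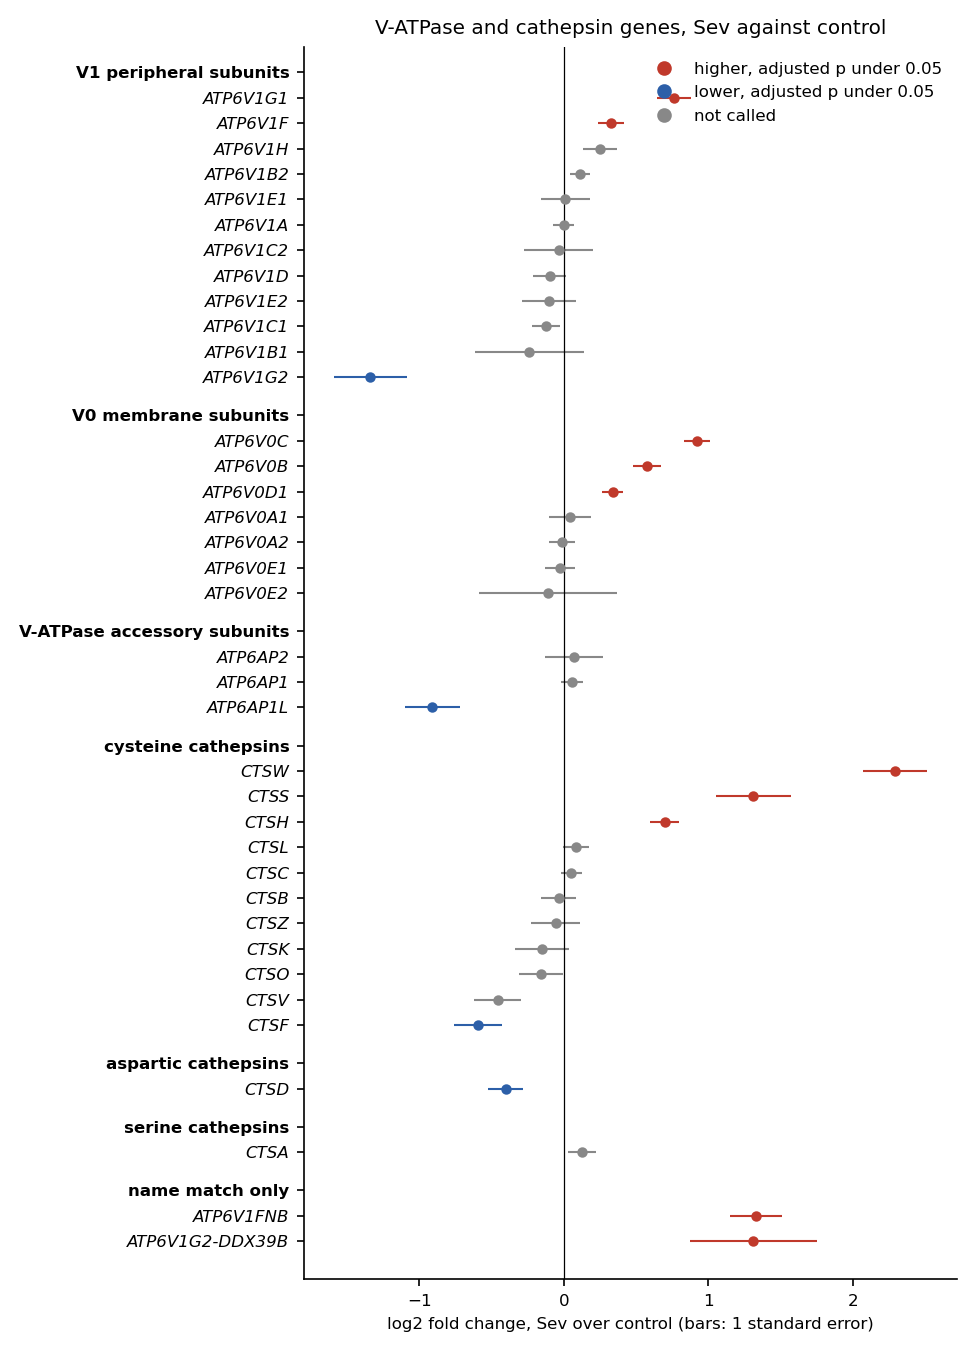
The log2 fold change of Sev over control is plotted on the horizontal axis for the 37 tested genes, grouped by role and sorted within each role, with bars of 1 standard error; red points were called higher, blue lower and grey not called. CTSW lies furthest to the right at 2.29 and ATP6V1G2 furthest to the left at -1.34, and most V-ATPase points sit close to 0.

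For genes on which the results turn, the 130 bases directly before the RefSeq start (assembly GRCh38.p14) are given on the strand of the gene. The gene spans printed elsewhere come from GENCODE, whose starts can differ. The stretches of ATP6V0B, CTSD, CTSF and CTSA lie inside those spans, and those of ATP6V1G1 and ATP6V0D1 overlap them in part. Capitals mark CACGTG, the E-box core that MITF/TFE transcription factors bind in lysosomal genes, which reads the same on both strands. The first 5 carry it in a gene that was called, CTSA carries it in a gene that was not, and ATP6V0C, the V-ATPase gene with the most significant rise, is shown because these letters are not in its window.
ATP6V0B (chr1:43974830-43974959, plus strand): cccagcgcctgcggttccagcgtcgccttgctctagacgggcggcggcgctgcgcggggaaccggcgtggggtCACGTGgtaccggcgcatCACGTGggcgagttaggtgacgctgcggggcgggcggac
ATP6V1G1 (chr9:114587639-114587768, plus strand): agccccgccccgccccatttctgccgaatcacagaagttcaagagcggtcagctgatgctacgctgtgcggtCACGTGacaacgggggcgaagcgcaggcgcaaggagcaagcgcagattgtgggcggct
ATP6V0D1 (chr16:67481158-67481287, minus strand): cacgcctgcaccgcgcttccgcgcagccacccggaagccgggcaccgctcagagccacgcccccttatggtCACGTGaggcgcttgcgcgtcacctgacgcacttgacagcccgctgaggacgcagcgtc
CTSD (chr11:1763928-1764057, minus strand): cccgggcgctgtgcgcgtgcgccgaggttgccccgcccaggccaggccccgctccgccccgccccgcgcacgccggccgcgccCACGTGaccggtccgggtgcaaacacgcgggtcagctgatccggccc
CTSF (chr11:66568607-66568736, minus strand): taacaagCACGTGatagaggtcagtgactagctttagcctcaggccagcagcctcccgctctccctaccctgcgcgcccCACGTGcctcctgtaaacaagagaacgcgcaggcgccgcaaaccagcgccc
CTSA (chr20:45891205-45891334, plus strand): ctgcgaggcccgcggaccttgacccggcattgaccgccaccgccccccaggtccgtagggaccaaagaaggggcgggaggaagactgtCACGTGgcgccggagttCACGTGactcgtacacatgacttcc
ATP6V0C (chr16:2513596-2513725, plus strand): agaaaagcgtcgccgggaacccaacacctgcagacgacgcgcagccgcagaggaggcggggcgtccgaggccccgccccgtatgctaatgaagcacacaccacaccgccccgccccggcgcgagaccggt

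A window of 250 bases before to 50 bases after the start was at hand for 28 of the 42 members, not for ATP6V1A, ATP6V1B2, ATP6V1C1, ATP6V1E2, ATP6V1H, ATP6V0D2, ATP6V0E1, ATP6AP1L, ATP6V1FNB, CTSB, CTSK, CTSO, CTSS and CTSW. CACGTG occurred in 4 of the 17 V-ATPase windows (ATP6V1G1, ATP6V0B, ATP6V0D1 and ATP6V0E2) and in 3 of the 10 cathepsin windows (CTSF, CTSD and CTSA). It occurred in 7.26% of all 35116 windows and in 8.79% of the 17539 windows of tested protein-coding genes. The longer form TCACGTGA, which contains CACGTG, was found in ATP6V1G1, ATP6V0D1 and CTSA, and in 0.98% of all windows and 1.52% of those of tested protein-coding genes. Of the 7 genes with a match, 3 were called higher, 2 lower (CTSD and CTSF, whose calls were lost in most fits that left out 1 library) and 2 not at all. Among all tested protein-coding genes 25.0% were called higher and 21.0% lower. The shares among those with a match were not computed, so a link between match and call was not tested. A match is a description of the sequence only.

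Of the 7 tested V0 genes within the rule, which leaves out TCIRG1, 3 rose, against a background of 25.0% of tested protein-coding genes. The V-ATPase gene with the lowest adjusted p was one of the 3. ATP6V0C (ENSG00000185883, chr16:2513870-2520218, plus strand) encodes the proteolipid subunit c, which makes up most of the proton-carrying ring. It had 73.5, 65.8 and 61.7 CPM in the control libraries and 120.4, 130.5 and 129.8 CPM in the Sev libraries. Every Sev library lay far above every control library, a 1.89-fold rise (log2 fold change 0.92, SE 0.09; adjusted p = 0.000301, edgeR's quasi-likelihood test). Pseudogene rows named after ATP6V0C, mainly ATP6V0CP4, held 14.2% of the summed counts of gene and copies in control and 13.7% in Sev, so how reads were divided between them is uncertain at a near-constant share.

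ATP6V0B (chr1:43974487-43978295, plus strand) encodes the related proteolipid of the same ring, subunit c″. Its level was 53.2, 61.3 and 66.7 CPM in control and 93.3, 90.0 and 86.6 CPM in Sev. The groups did not overlap, and the rise was 1.49-fold (log2 fold change 0.58, SE 0.10; adjusted p = 0.003). An unnamed row that overlaps ATP6V0B on the opposite strand, ENSG00000285649, rose from 0.516 to 1.42 CPM (adjusted p = 0.00695). Both proteolipid genes thus rose, and both calls were kept in all 6 fits in which 1 library was left out in turn (leave-one-out fits).

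ATP6V0D1 (chr16:67438014-67481237, minus strand) encodes subunit d, which joins the ring to the central stalk of the V1 sector. Control libraries gave 81.1, 86.9 and 86.9 CPM and Sev libraries 105.9, 108.1 and 107.9 CPM. The spread within each group was small beside the gap of 1.26-fold (log2 fold change 0.34, SE 0.07; adjusted p = 0.00736). The call was kept in all 6 leave-one-out fits, but it was lost when libraries were scaled by their totals alone (adjusted p = 0.0567). A divergent non-coding transcript, ATP6V0D1-DT, begins close by on the other strand without overlapping the gene, and it fell (log2 fold change -1.63, adjusted p = 0.000814), so the rows of the pair moved apart.

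The other tested V0 genes within the rule were not called, while TCIRG1, outside it, was called lower and is given below with its paralogs. Subunit a genes ATP6V0A1 and ATP6V0A2 averaged 87.8 and 38.8 CPM in control and 90.4 and 38.4 CPM in Sev. Of the small subunit e genes, ATP6V0E1 averaged 65.5 and 64.3 CPM. Its paralog ATP6V0E2 gave 86.7, 38.6 and 17.0 CPM in control and 41.2, 47.5 and 43.3 CPM in Sev. The control libraries of ATP6V0E2 thus spread far more widely than the Sev libraries, with control replicate 1 at the top and control replicate 3 at the bottom. Its log2 fold change was -0.11 (SE 0.48; adjusted p = 0.872) with all libraries and 0.66 (adjusted p = 0.154) without control replicate 1. An antisense row that overlaps it, ATP6V0E2-AS1, fell (log2 fold change -1.36, adjusted p = 0.00687), and whether the counting used strand was not given in the sources used here.

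In the V1 sector the clearest contrast was within subunit G, which forms part of the peripheral stalks. ATP6V1G1 (chr9:114587746-114598373, plus strand) is the broadly used form. It had 21.4, 26.0 and 20.1 CPM in control and 38.1, 36.4 and 40.0 CPM in Sev, a 1.7-fold rise with no overlap (log2 fold change 0.76, SE 0.12; adjusted p = 0.00179, edgeR's quasi-likelihood test). ATP6V1G2 (chr6:31544462-31548427, minus strand), the form known from neurons, had 2.27, 1.56 and 1.75 CPM in control and 0.876, 0.719 and 0.606 CPM in Sev. It was the V-ATPase gene that fell most, by 1.34 on the log2 scale (SE 0.25; adjusted p = 0.00434), and again no Sev library reached a control library. Both calls were kept in all 6 leave-one-out fits. ATP6V1G3, the kidney form, had no count in any library.

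The locus of ATP6V1G2 overlaps the readthrough row ATP6V1G2-DDX39B (chr6:31530219-31546608, minus strand) on the same strand. This row had 1.18, 1.21 and 0.536 CPM in control and 1.30, 2.26 and 3.63 CPM in Sev. It rose (log2 fold change 1.31, SE 0.44; adjusted p = 0.0433) while ATP6V1G2 fell, but Sev replicate 1 lay close to the controls and the call was kept only in the leave-one-out fit without that library. DDX39B itself, an RNA helicase gene, averaged 299 CPM in control and 362 CPM in Sev (adjusted p = 0.0448). Since these rows share exons, the division of reads among them is uncertain.

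ATP6V1F (chr7:128862826-128865844, plus strand) encodes subunit F of the central stalk. Its values were 59.2, 71.5 and 67.7 CPM in control and 81.7, 83.2 and 83.5 CPM in Sev. The Sev libraries were almost identical and all above control, yet the step was small, 1.25-fold (log2 fold change 0.33, SE 0.09; adjusted p = 0.0213). This call was kept in only 2 of the 6 leave-one-out fits, those without control replicate 2 or Sev replicate 2, and it was lost with scaling by library totals alone (adjusted p = 0.113). ATP6V1FNB begins 464 bases downstream on the same strand and is a gene of its own, not a subunit. It had 3.17, 2.47 and 3.17 CPM in control and 7.41, 8.44 and 6.31 CPM in Sev, a 2.51-fold rise (log2 fold change 1.33, SE 0.18; adjusted p = 0.00107).

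The remaining V1 genes, which include the catalytic core, were not called. ATP6V1A, the catalytic subunit A that binds and hydrolyses ATP, averaged 95.0 ± 1.49 CPM (SD, n = 3) in control and 94.9 ± 4.40 CPM (SD, n = 3) in Sev. Its partner in the head of the pump, ATP6V1B2, averaged 110.2 and 119.1 CPM, with every Sev library above control but an adjusted p of 0.22. Stalk and regulatory subunits ATP6V1C1, ATP6V1D, ATP6V1E1 and ATP6V1H were likewise not called, though ATP6V1C1 was called lower with scaling by library totals (adjusted p = 0.0433). Neither were the low forms ATP6V1B1, ATP6V1C2 and ATP6V1E2, each under 5 CPM in every library. Over the 15 V-ATPase genes not called, log2 fold changes ran from -0.24 to 0.25.

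Of the accessory subunits, ATP6AP1, which takes part in assembly of the V0 sector, had the highest level per length, 38.5 FPKM in control and 36.1 FPKM in Sev, and was not called (log2 fold change 0.053, SE 0.077; adjusted p = 0.601). The direction of this small difference turned with scaling by library totals, to -0.09. ATP6AP2, the prorenin receptor, averaged 37.0 ± 8.09 and 38.8 ± 8.68 CPM (SD, n = 3 each). ATP6AP1L (chr5:82279462-82386977, plus strand), which GENCODE lists as protein-coding and RefSeq as a transcribed pseudogene, had 9.62, 7.65 and 7.35 CPM in control and 3.74, 4.07 and 5.28 CPM in Sev. It fell by 0.91 on the log2 scale (SE 0.19; adjusted p = 0.00626) without overlap, and the call was kept in all 6 leave-one-out fits.

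**Figure D2:**
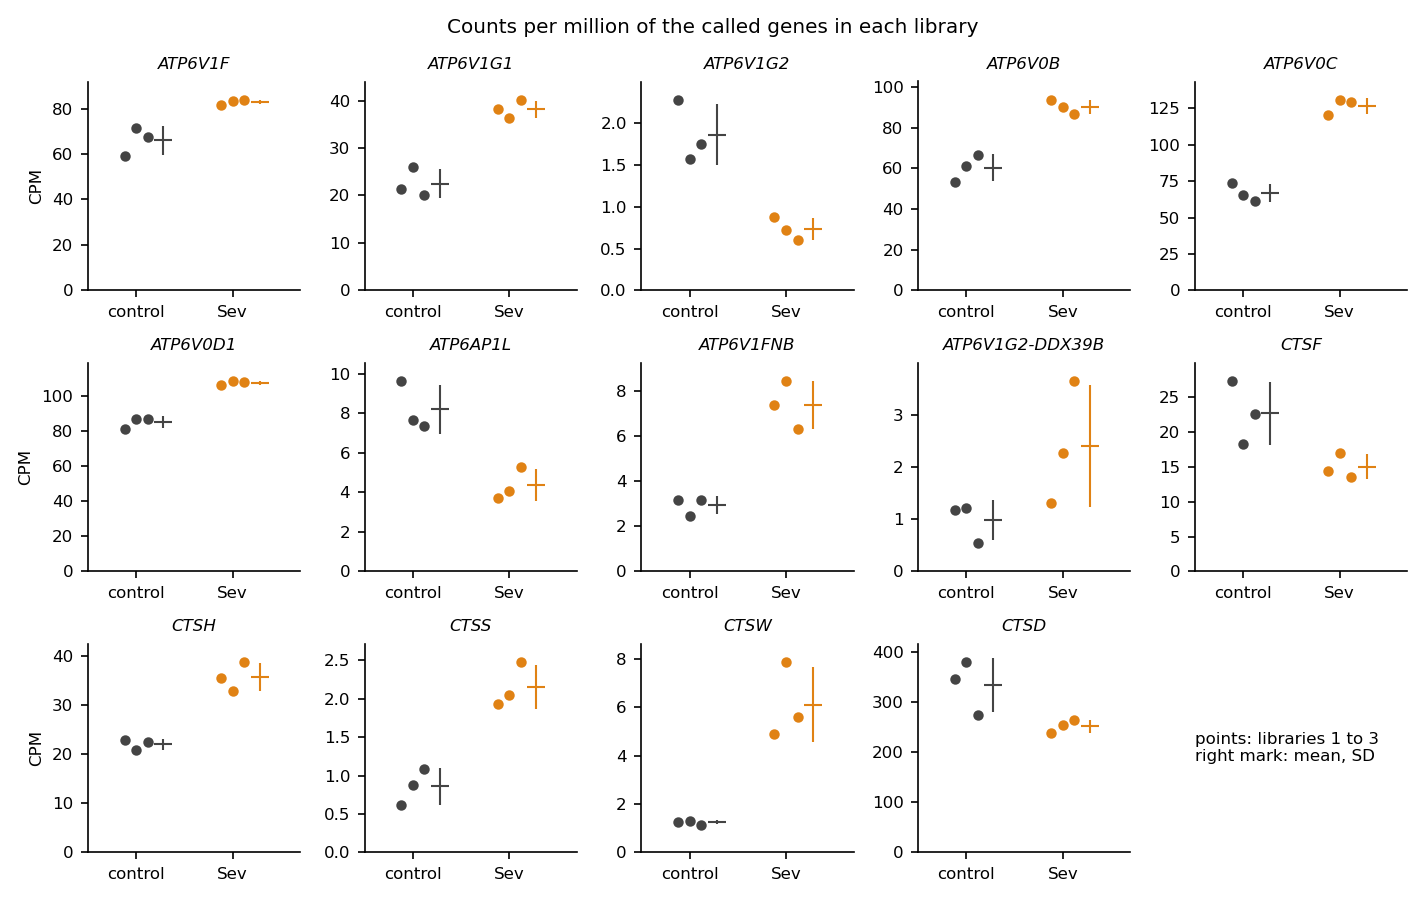
Each panel plots CPM, on a linear axis from 0, in the 3 control libraries (grey) and the 3 Sev libraries (orange) of 1 called gene, with the group mean and SD as the mark to the right. The 14 panels hold only genes called from these same libraries, so the separation of their control and Sev points is no further evidence. ATP6V1G2-DDX39B and CTSD come close to overlap, with 1 Sev library of the first at 1.30 CPM beside a control library at 1.21.

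Levels per length can be compared between genes in FPKM, which the authors deposited beside the counts. On this scale ATP6V1F was the most abundant V-ATPase gene (73.7 ± 5.59 in control and 83.8 ± 3.17 in Sev, SD, n = 3 each), followed by ATP6V0C (40.3 in control and 69.0 in Sev), ATP6AP1 and ATP6V0E1. The order of ATP6V0C and ATP6AP1 was clear only in Sev, because in control replicate 3 ATP6V0C lay at 37.0 FPKM, below ATP6AP1 at 38.4 FPKM. Summed over the V0 genes within the rule, without TCIRG1, levels were 108.6 to 119.6 FPKM in control and 141.5 to 149.1 FPKM in Sev. Those of the V1 genes were 142.7 to 151.5 FPKM in control and 150.5 to 167.6 FPKM in Sev, which overlap. In CPM with TMM scaling neither sector overlapped, at 418.5 to 471.1 in control and 538.6 to 585.4 in Sev for V0 and 460.3 to 479.5 in control and 504.7 to 519.5 in Sev for V1. Most of the V0 step in FPKM came from ATP6V0C, whose mean rose from 40.3 to 69.0 FPKM. Across the 22 tested V-ATPase genes, the log2 fold change and the mean FPKM had a Spearman correlation of 0.669, given as a description across genes measured in the same libraries, beside 0.105 over the 15189 tested protein-coding genes. The 5 V-ATPase genes that rose had a median length of 2.21 kb (0.939 to 10.1 kb, as implied by the deposited FPKM) and a median GC content of 56.5% (42.0% to 63.6%), beside medians of 6.31 kb (1.98 to 16.9 kb) and 45.0% (39.7% to 59.1%) for the 15 not called, so the ranges overlapped. With the trend on length and GC content removed from each library, 4 of these calls were kept, that of ATP6V1F was lost (adjusted p = 0.0803), and ATP6V1B2 and CTSC were called higher (adjusted p = 0.0108 and 0.015).

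**Figure D3:**
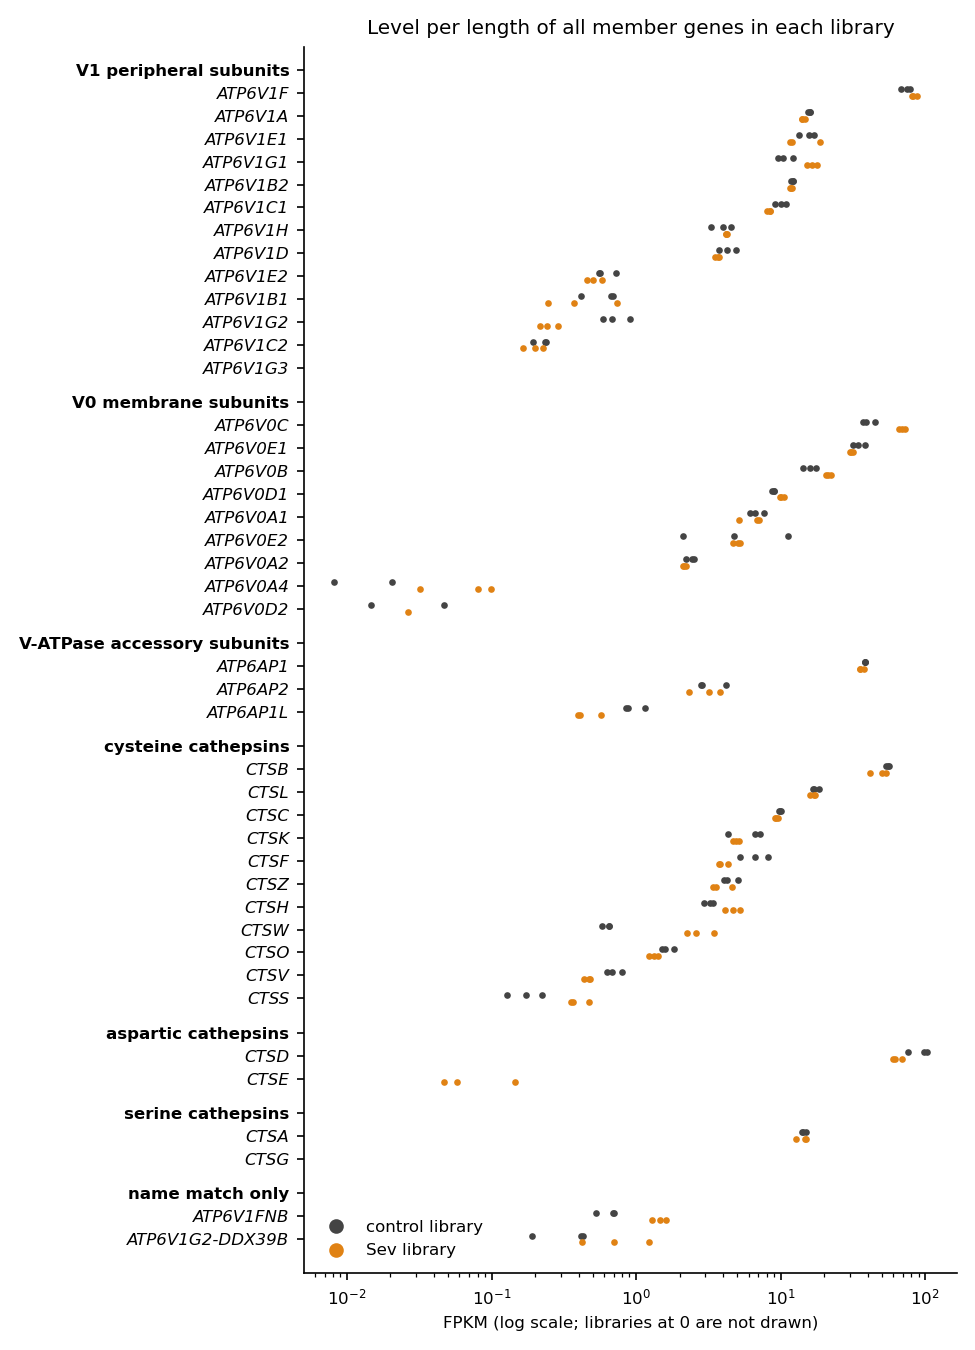
FPKM in each library is plotted on a log axis for all 42 genes, sorted by level within each role, with control libraries in grey and Sev libraries in orange; libraries at 0 are not drawn. Abundant subunits lie between 10 and 100 FPKM with the libraries close together, and tissue-restricted forms such as ATP6V0A4, ATP6V0D2 and CTSE lie below 1 FPKM.

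Several subunits are encoded by paralogs, so the share of each paralog in the summed FPKM of its subunit was compared. A share within a library does not depend on the scaling between libraries. Within subunit G, ATP6V1G1 made up 92.0%, 95.3% and 93.4% in control and 98.3%, 98.4% and 98.8% in Sev. The shares did not overlap, and the difference was 4.93 percentage points. Within subunit a, TCIRG1 made up 63.1%, 57.3% and 63.4% in control and 55.8%, 50.5% and 46.3% in Sev, a difference of -10.4 percentage points without overlap. TCIRG1 itself fell (74.7 CPM in control and 50.4 CPM in Sev; log2 fold change -0.57, SE 0.11; adjusted p = 0.00422, edgeR's quasi-likelihood test), and ATP6V0A1 held 28.6% in control and 36.3% in Sev. For both subunits the exact two-sided permutation test gave p = 0.1, the smallest that 3 against 3 libraries allow, and 0.3 after adjustment over the 6 subunits compared. In subunits B, C, E and e, the shares of the main paralog overlapped between the groups (exact permutation p from 0.6 to 1).

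**Figure D4:**
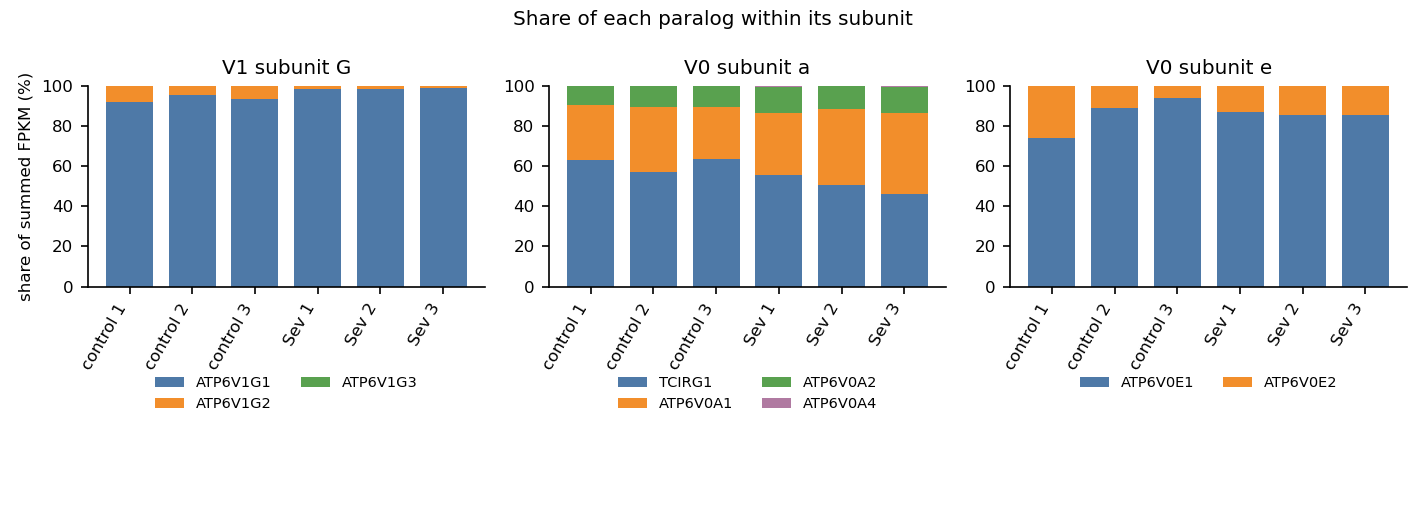
Stacked bars give, for each library, the percentage of a subunit's summed FPKM that comes from each paralog, for V1 subunit G, V0 subunit a and V0 subunit e. The ATP6V1G2 segment shrinks from a mean of 6.43% to 1.50%, the TCIRG1 segment from 61.3% to 50.9%, and subunit e varies most among the control libraries.

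Among the cathepsins, the most significant changes were in cysteine proteases at low or moderate level. CTSW (chr11:65879809-65883741, plus strand) is a cathepsin best known from cytotoxic lymphocytes. It had 1.28, 1.31 and 1.15 CPM in control and 4.88, 7.85 and 5.58 CPM in Sev, from 52 to 56 counts and 184 to 295 counts per library. All Sev libraries were several times above control, a 4.89-fold rise (log2 fold change 2.29, SE 0.22; adjusted p = 0.000301, edgeR's quasi-likelihood test). Of 8 T and NK cell markers, 3 (CD3D, CD3E and CD2) had no count in any library, and the list summed to 0.581 to 2.04 CPM in control and 0.212 to 0.932 CPM in Sev. FIBP, which overlaps CTSW on the opposite strand, averaged 45.5 CPM in control and 47.5 CPM in Sev and was not called.

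CTSS (chr1:150730196-150765957, minus strand) encodes the cathepsin that antigen-presenting cells use to process the invariant chain. Control libraries gave 0.615, 0.883 and 1.09 CPM and Sev libraries 1.94, 2.05 and 2.47 CPM. The groups did not overlap and differed 2.48-fold (log2 fold change 1.31, SE 0.26; adjusted p = 0.00537), at 26 to 98 counts per library. Macrophage and microglia markers moved the same way, since the 7 listed genes summed to 5.15 to 5.58 CPM in control and 12.5 to 14.4 CPM in Sev. The 3 tested markers, CSF1R, CD14 and ITGAM, were called higher, CSF1R in only 3 of the 6 leave-one-out fits. ITGAM, at 0 to 3 counts per control library, passed the filter for testing only through its Sev libraries. AIF1 and TYROBP had no count in any library, PTPRC had at most 12 counts and CX3CR1 at most 5. The part of such cells, or of such genes in U251 cells, in the CTSS result was not tested, and in bulk RNA more cells of a type and more RNA per cell cannot be told apart.

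CTSH (chr15:78921058-78949574, minus strand) encodes an aminopeptidase among the cathepsins. It had 22.9, 20.8 and 22.5 CPM in control and 35.7, 32.9 and 38.8 CPM in Sev, a 1.62-fold rise without overlap (log2 fold change 0.70, SE 0.10; adjusted p = 0.00132). The calls of CTSW, CTSS and CTSH were all kept in the 6 leave-one-out fits. RASGRF1, the next expressed gene upstream of CTSH on the same strand at a distance of 10373 bases, rose as well (1.66 CPM in control and 9.35 CPM in Sev; adjusted p = 0.000311). Such neighbours of other called genes moved either way. FLNC, 3552 bases before ATP6V1F, was called higher. TBC1D24, 4310 bases before ATP6V0C, and AGRP, 1334 bases before ATP6V0D1, were called lower. DPH2, 1118 bases before ATP6V0B, was not called.

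The abundant cathepsins did not follow these. CTSD (chr11:1752752-1764573, minus strand), the aspartic protease of lysosomes, had the highest level per length of all 42 genes in control, 92.5 ± 14.7 FPKM (SD, n = 3) beside 63.3 FPKM in Sev. In CPM it gave 348, 380 and 275 in control and 239, 254 and 264 in Sev. The lowest control library stood just above the highest Sev library, and the gene fell by 0.40 on the log2 scale (SE 0.12; adjusted p = 0.0296). That call was kept only in the fit without control replicate 3 and lost in the other 5, where the adjusted p reached 0.102. CTSF (chr11:66563463-66568841, minus strand), a cysteine cathepsin, had 27.2, 18.2 and 22.6 CPM in control and 14.4, 17.0 and 13.6 CPM in Sev. It fell by 0.60 on the log2 scale (SE 0.17; adjusted p = 0.022), and its call was kept in 2 of the 6 fits, those without control replicate 2 or Sev replicate 2. With the replicate number added to the fit as a block, neither CTSD nor CTSF was called.

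CTSB, the most abundant cysteine cathepsin, had 453, 485 and 484 CPM in control and 475, 529 and 381 CPM in Sev. Sev replicates 2 and 3 lay on either side of all controls, and the log2 fold change was -0.036 (SE 0.12; adjusted p = 0.83). The endopeptidase CTSL and the dipeptidyl peptidase CTSC averaged 37.8 and 132.7 CPM in control and 40.1 and 137.4 CPM in Sev, and neither was called. CTSA, a serine carboxypeptidase that also shields other lysosomal enzymes, averaged 98.8 and 107.7 CPM (log2 fold change 0.13, SE 0.10; adjusted p = 0.333). CTSV was just outside the threshold (log2 fold change -0.46, SE 0.16; adjusted p = 0.0508), with 3.43 to 4.16 CPM in control and 2.66 to 2.87 CPM in Sev. CTSK, the collagen-degrading enzyme of osteoclasts, CTSO and CTSZ were not called. Summed over all cathepsins, the level was 196.7 to 221.0 FPKM in control and 171.5 to 180.2 FPKM in Sev, but in CPM with TMM scaling the sums overlapped, at 1108 to 1210 in control and 999.8 to 1175 in Sev. CTSD made up 38.5% to 46.7% of the FPKM sum in control and 34.1% to 39.9% in Sev, which also overlap.

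The 5 members that were not tested had few or no counts. ATP6V1G3 and CTSG, the cathepsin of neutrophil granules, had no count in any library, and a floor of 3 counts in 1 library corresponds to at most 0.0798 CPM. ATP6V0D2, an osteoclast form of subunit d, had 0 to 8 counts in control and 0 to 4 in Sev. ATP6V0A4, the kidney form of subunit a, had 0, 2 and 5 counts in control and 17, 7 and 21 in Sev. CTSE, an aspartic cathepsin of stomach and immune cells, had 0 counts in all 3 control libraries and 8, 21 and 7 in the Sev libraries, which is at least 13.6-fold higher against a floor of 3 counts over the control group. Both of these were low, without overlap, and below the filter for testing. In the fit without an expression filter they were called higher (adjusted p = 0.0423 for ATP6V0A4 and 0.0126 for CTSE, edgeR's quasi-likelihood test).

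Genes that work with the pump but carry other names were taken from a separate list. Of 14 tested, 2 rose (14.3%) and 6 fell (42.9%), with a median log2 fold change of -0.36, beside 25.0% of tested protein-coding genes higher and 21.0% lower. OXR1 (log2 fold change -0.79, SE 0.14; adjusted p = 0.00304) and MEAK7 (-0.73, SE 0.13; adjusted p = 0.00351), which carry the TLDc domain of proteins that act on the V1 sector, fell most. A relative, NCOA7, rose (0.51, SE 0.12; adjusted p = 0.0108), as did TMEM199 (0.56, SE 0.19; adjusted p = 0.0435), a factor for V-ATPase assembly whose call was kept in 2 of 6 fits. Singled out after their values were seen, the genes of the RAVE-type complex that brings V1 and V0 together, DMXL1, DMXL2 and WDR7, fell by 0.35, 0.56 and 0.61 on the log2 scale (adjusted p = 0.00968, 0.00122 and 0.00663). ROGDI, the other gene of this complex on the list, had a log2 fold change of -0.36 and was not called.

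**Figure D5:**
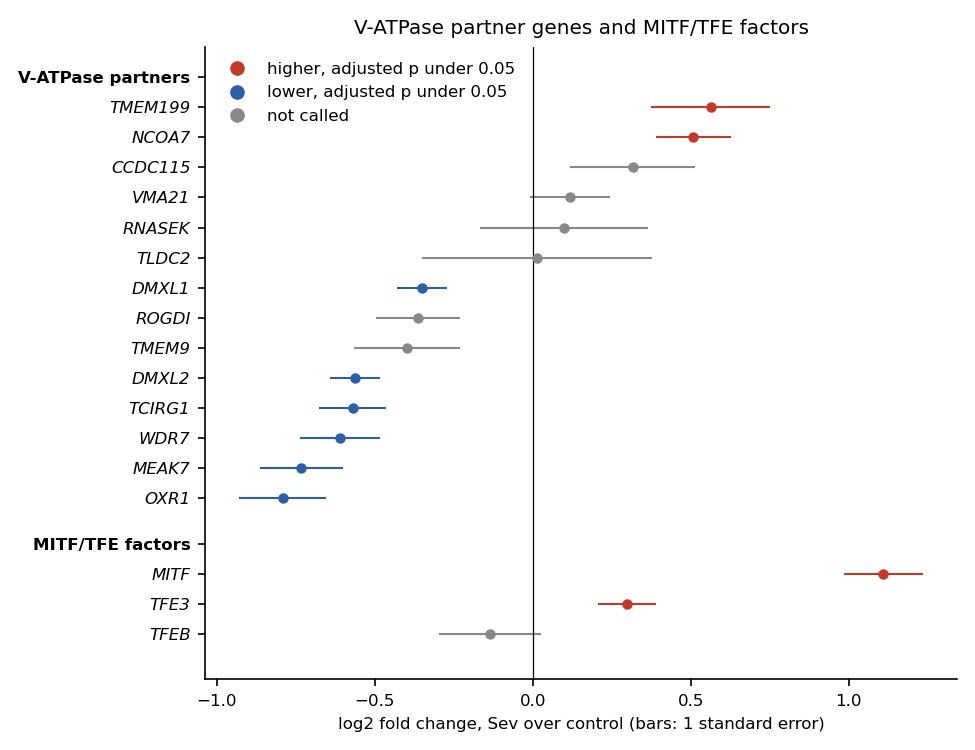
The log2 fold change of Sev over control is plotted for 14 genes that act with the V-ATPase and for the 3 tested MITF/TFE factors, with bars of 1 standard error and red for called higher, blue for called lower and grey for not called. Among the partners 6 points are blue and 2 red, and MITF stands at 1.11.

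The MITF/TFE factors, which bind the E-box named above and are known to drive lysosomal genes, were measured as well. MITF had 32.3, 28.3 and 29.2 CPM in control and 69.1, 71.1 and 53.8 CPM in Sev, with no overlap and a log2 fold change of 1.11 (SE 0.13; adjusted p = 0.000493). TFE3 rose less (57.9 CPM in control and 71.1 CPM in Sev; log2 fold change 0.30, adjusted p = 0.032), a call kept in only 1 of the 6 fits. TFEB averaged 9.05 CPM in control and 8.24 CPM in Sev and was not called (log2 fold change -0.14, adjusted p = 0.53).

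Other lysosomal groups are given beside the same background of 25.0% higher and 21.0% lower. Of 39 tested hydrolases that are not cathepsins, 2 rose (IDS, log2 fold change 0.77, and ARSB, 0.34) and 4 fell, with HYAL1 (-1.39) and GALNS (-0.67) the furthest. Of 21 lysosomal membrane and ion transport genes, 1 rose and 4 fell, of which LAPTM4B (-1.90) and TMEM63A (-1.04) moved most. The gene that rose was LAMP3, with no count in control and 16 to 29 counts in each Sev library. In the sorting of lysosomal enzymes, 3 of 16 genes rose and 2 fell. SORT1, a receptor that carries cathepsins and other enzymes to the lysosome, fell by 1.11 on the log2 scale from 588 to 272 CPM (SE 0.08; adjusted p = 0.000112), and GGA3, an adaptor of the same route, fell by 0.55, while NAGPA (0.56) and GGA2 (0.46) rose. Of 7 tested cystatins and processing genes, CST7, an inhibitor of cysteine cathepsins, rose (1.60) and SERPINB6 fell (-0.77). Of 9 Ragulator and Rag GTPase genes, which tie the pump to mTORC1 signalling, RRAGC rose (0.52). In these lists, shares of calls ranged from 4.76% to 66.7% higher and from 0 to 42.9% lower, over as few as 3 genes.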

How the data were processed

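RNA sequencing libraries of 3 control and 3 Sev samples of U251 cells were analysed. The authors sequenced ribosomal RNA-depleted, strand-specific libraries as read pairs and deposited raw counts per gene and FPKM. Per the submitters' processing notes, bcl2fastq 2.19 and featureCounts were used and the build was hg18. The aligner, the annotation and the strand setting were not given in the sources used here. The deposited FPKM equalled count per fixed gene length and library total within 1.47% over 8621 abundant genes and is no independent readout. Positions and biotypes came from GENCODE 29 on GRCh38, joined by Ensembl ID.

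Counts were tested with edgeR 4.0.16 (filterByExpr, TMM, quasi-likelihood F test, no covariate) and Benjamini-Hochberg adjustment over all tested features, and CPM were computed with TMM-scaled library sizes. Standard errors (SE) came from the size of each log2 fold change over the root of its F statistic. The code was tested on simulated data. Members called, the most abundant member of each role, compared paralogs and untested members were named, and from each list outside the rule at most the 2 largest changes in each direction, apart from TCIRG1, the MITF/TFE factors and the RAVE-type genes, the last chosen after their values were seen. Members and lists were chosen with earlier results of these data known, and the T and NK cell markers were added after the values were seen. Alternatives were DESeq2 1.42.0, other scalings and filters, limma 3.58.1 on log2(FPKM + 1) and log2(FPKM + 0.1), a replicate block, added pseudogene copies, removal of the length and GC trend (chosen after seeing the data) and leaving out each library. Floors cover counting error only. No column was left unassigned. With libraries scaled by their totals, not by TMM, replicates differed beyond counting noise for 50.5% to 68% of 13668 genes, which includes any difference in scaling.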

Additional observations from a re-analysis of the deposited data

How the results depend on the processing

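Under the other fits the calls of ATP6V0C, ATP6V0B, ATP6V1G1, ATP6V1G2, ATP6AP1L, ATP6V1FNB, CTSH, CTSS and CTSW kept their direction and stayed under the threshold in every alternative in which they were tested. Library totals alone shifted the median of all features by -0.14 and the FPKM settings, which also changed the test, by -0.12 to -0.14. In these fits 38.3% and 35.4% to 40.0% of the calls were higher in Sev, beside 50.7% with TMM. The number of V-ATPase genes called higher went from 5 to 3 with library totals and with each of the 3 FPKM settings, since ATP6V1F and ATP6V0D1 were lost, and those called lower went from 2 to 3 with library totals and both filtered FPKM settings, since ATP6V1C1 was gained (adjusted p = 0.0433, 0.0456 and 0.0461). The V-ATPase median became -0.135 with library totals and -0.09, -0.107 and -0.075 with log2(FPKM + 1), log2(FPKM + 0.1) and unfiltered log2(FPKM + 1). The cathepsin median became -0.183 with library totals and -0.177 and -0.202 with the first and the second of these. ATP6AP1 turned to -0.09 with library totals and to -0.089, -0.092 and -0.089 with FPKM, and CTSA to -0.021 and to -0.025, -0.027 and -0.025. ATP6V0E2 turned to 0.04 with log2(FPKM + 0.1) and to 0.191 with the replicate block, and ranged from -0.516 to 0.655 with a library left out, without control replicate 3 and control replicate 1. Leaving out 1 library gave 4 to 6 V-ATPase genes higher, 2 lower, 3 cathepsins higher and 0 to 1 lower, and a cathepsin median of -0.123 to 0.08, the last without Sev replicate 3, where CTSB turned to 0.086. CTSV came under the threshold with library totals (adjusted p = 0.0241) and with protein-coding genes only (adjusted p = 0.0446). With the length and GC trend removed, ATP6V1F lost its call (adjusted p = 0.0803) and ATP6V1B2 (0.0108) and CTSC (0.015) gained one, which left 5 V-ATPase genes higher and made 4 cathepsins higher. Without an expression filter, ATP6V0A4 and CTSE made 6 V-ATPase genes and 4 cathepsins higher. Of the members not called, 13 of 15 V-ATPase genes and 5 of 8 cathepsins changed sign under at least 1 alternative, and none of the 14 called genes did.

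Replicate numbers did not pair the samples (correlations of same-numbered deviations -0.007, 0.004 and 0.027). With the replicate block, the cathepsins called lower went from 2 to 0, with adjusted p = 0.0523 for CTSF and 0.0566 for CTSD, and ATP6V1G2-DDX39B reached adjusted p = 0.104. The cause of these shifts was not tested, apart from the fewer samples in fits that left out a library. The widest standard errors among the tested members were those of ATP6V0E2 (0.478) and ATP6V1G2-DDX39B (0.439), the second at 26 to 144 counts per library.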

Other observations

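Rows of 3 pseudogene copies of ATP6V1E1 also held reads. ATP6V1E1P1 had 4, 3 and 0 counts in control and 20, 36 and 33 in Sev, while ATP6V1E1 itself was not called. ATP6V0CP4 had 332, 364 and 438 counts in control and 631, 875 and 502 in Sev, a rise of the same direction as that of ATP6V0C. Of the 4 rows named as antisense or divergent to a member gene, ATP6V0D1-DT averaged 9.04 CPM in control and 2.91 CPM in Sev, ATP6V0E2-AS1 5.51 and 2.14 CPM and ATP6V1B1-AS1 1.09 and 0.616 CPM, and these fell (the last kept in 1 of 6 leave-one-out fits), while ATP6AP1-DT averaged 1.07 and 0.617 CPM and was not called (log2 fold change -0.78, adjusted p = 0.0987, edgeR's quasi-likelihood test). Other rows that overlap a member on the opposite strand moved in both directions, among them ENSG00000285649 over ATP6V0B, which rose (log2 fold change 1.44, adjusted p = 0.00695), and ENSG00000258881 over ATP6V1B1, which fell (-1.09, adjusted p = 0.0105).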
